A study of Mus musculus with 4 samples.

Results

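Synaptic vesicle and release genes were followed through the cells of the neonatal mouse telencephalon as a list of 36 genes, found by gene symbol among the 32285 gene rows of the count matrices. All 36 symbols were found. The list held 10 genes of vesicle proteins, 6 of the SNARE machinery, 7 of calcium sensors and complexins, 9 of Rab3 and the active zone, and 4 of vesicle retrieval. Single-cell RNA sequencing had been carried out on tdTomato-positive cells sorted from C57BL/6 mice at P5 (postnatal day 5), after tamoxifen given to the mother at E14.5 had switched on Cre in cells that expressed NestinCreERT2. Both genotypes carried NestinCreERT2 and the tdTomato reporter: control mice were NestinCreERT2/tdTomato/Chd8+/+, and mutant mice were NestinCreERT2/tdTomato/Chd8+/F, in which Cre removes an inner part of 1 copy of Chd8, the gene of a chromatin remodeller. There were 2 libraries per genotype, and in each of them cells of 3 mice had been pooled, so that p-values below measure the spread between libraries. In fits without the replicate number, that spread also holds the difference between replicate numbers in software version, Xist and mitochondrial share, given further below. Because Cre was under a Nestin transgene, the label was meant to mark descendants of progenitors that were active at the time of tamoxifen. The sorted cells also held 362 microglia, 570 pericytes, 166 endothelial cells and 103 fibroblasts, whose origin was not examined.

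Fast transmitter release rests on a cycle. Vesicles filled with transmitter are held near the active zone by synapsins and scaffolds, are docked by Rab3 and RIM proteins, and are primed by Munc13 proteins, which help synaptobrevin on the vesicle to assemble with syntaxin and SNAP25 on the plasma membrane. Complexin holds the assembled complex, calcium binding to a synaptotagmin triggers fusion, NSF takes the complex apart, and clathrin adaptors, amphiphysins and dynamin retrieve the membrane. Newborn neurons switch these genes on before synapses form, and part of the set also serves general membrane traffic in other cells.

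Many presynaptic genes carry in or near their promoters an RE1 element, the site of the repressor REST, and some carry the cyclic AMP response element (CRE) TGACGTCA. Start-site windows of 250 bases before and 50 bases after the start in RefSeq (GRCm38.p6) were found for 28 of the 36 genes. The left part of RE1, TTCAGCACC, was searched on both strands together with the right part, GGACAGCGC, and the CRE. They stood in 0.371%, 0.405% and 1.79% of all 32851 windows, and among the 36 windows of the listed genes in those of Syn1, which encodes synapsin I, and Unc13a, which encodes the priming factor Munc13-1. The Syn1 sequence below is the 250 bases that end at the base before the start (chrX:20920919-20921168, minus strand), with the left part of RE1 at 232 to 224 bases before the start and the CRE at 159 to 152 bases before it, both in capitals. The Unc13a sequence is a stretch of 26 bases downstream of the start (chr8:71671727-71671752, minus strand), with the right and left parts of RE1, both on the opposite strand and hence read here as their reverse complements, in capitals. They are shown because these were the listed genes whose windows held a match. Levels of both genes and of Rest, the gene of the repressor, are given further below, and control by REST was not tested. A match of letters is a description of the window and not evidence of binding.
Syn1: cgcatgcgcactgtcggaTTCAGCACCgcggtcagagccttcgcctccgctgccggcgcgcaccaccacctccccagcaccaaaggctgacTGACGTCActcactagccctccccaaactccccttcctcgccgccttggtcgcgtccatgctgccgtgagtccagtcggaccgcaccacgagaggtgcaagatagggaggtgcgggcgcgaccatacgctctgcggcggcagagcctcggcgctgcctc
Unc13a: GCGCTGTCCgcgcccccGGTGCTGAA

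The libraries held 46274374 to 79328841 unique molecular identifiers (UMIs) in 6107 to 7279 barcodes, and 17623 of 27742 barcodes passed the filters (8683 control and 8940 mutant cells). Although the samples were labelled as neuronal cells, astrocytes (5178 cells) and oligodendrocyte precursor cells (OPCs, 3155 cells) were the most numerous classes, against 925 excitatory neurons, 2955 inhibitory neurons, 558 excitatory precursors and 638 progenitors of inhibitory neurons. The summed level of 9 excitatory markers was 1128 to 1245 CPM (UMIs of a gene scaled to a common total per library) in excitatory neurons and 6.22 to 28.7 CPM in inhibitory neurons, and that of 10 inhibitory markers was 22.7 to 105 CPM and 4164 to 4525 CPM in the same order. Astrocyte markers summed to 546 to 837 CPM in excitatory neurons and to 228 to 461 CPM in inhibitory neurons. Libraries with replicate number 2 stood apart from those with number 1. They named Cell Ranger 5.0.1 in place of 7.0.0 in the file header, lost 37.8 to 44.0% of barcodes to the mitochondrial limit against 9.38 to 12.3%, and held 1633 to 1749 CPM of Xist against 0.149 to 0.153 CPM. Xist is the RNA that silences an X chromosome in female cells, and its level in replicate 2 goes against the statement of the study that male mice were used. Software version, cell state and the sex of the pooled mice cannot be told apart here. Between 2 and 15 barcodes were shared by any pair of libraries. Chd8, the targeted gene, was at 66.1, 116, 93.1 and 126 CPM in excitatory neurons and at 90.2, 119, 101 and 165 CPM in inhibitory neurons of control replicate 1, control replicate 2, mutant replicate 1 and mutant replicate 2. The mutant value was thus the higher within each replicate number in both classes. Reads of a 3′ library lie mainly near the end of a transcript, and where those of Chd8 lay was not examined. These levels therefore do not check the labels.

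Levels below are CPM from the UMIs summed over all cells of a class in a library, given for control replicates 1 and 2 and mutant replicates 1 and 2 in that order, and means are over these 4 libraries. Across 12 cell types with at least 20 cells in each library, 17 of the 36 genes had their highest mean level in excitatory neurons and 5 in inhibitory neurons. Another 4, Syn2, Cplx2, Sv2b and Sv2c, were highest in excitatory precursors. The remaining 10 peaked outside the neuronal lineages, 3 in dividing OPCs (Snap91, Nsf and Dnm1), 3 in microglia (Bin1, Syngr1 and Stxbp5), 2 in ependymal cells (Syt5 and Vamp1), 1 in astrocytes (Syt11) and 1 in oligodendrocytes (Sv2a). The ranking was not made over all genes, so that no background share stands beside these counts. Syn1, counted among the 5, was near level between the neuron classes. Neuron subclasses, described further below, were not ranked. Those without Sp8 and Prokr2 among inhibitory neurons held Dnm1 at 33.5, 51.7, 21.8 and 28.5 CPM, above its mean of 16.0 CPM in dividing OPCs. They held Syt5 at 49.7, 48.6, 60.1 and 61.0 CPM, above its mean of 33.8 CPM in ependymal cells. Their Snap91, at 186, 76.0, 160 and 77.2 CPM, lay on both sides of its mean of 107 CPM in dividing OPCs. Excitatory neurons without Prox1, with only 12 cells in each replicate 2 library, held Stxbp5 at 116, 45.8, 104 and 9.12 CPM. These values lay on both sides of its mean of 62.4 CPM in microglia. Nsf and Vamp1 in the same excitatory neurons likewise lay on both sides of their highest means. Bin1, Syngr1, Syt11 and Sv2a stayed lower in every neuron subclass. Order within a gene is compared here, since 3′ counts are not scaled by length and do not rank genes against each other.

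**Figure D1:**
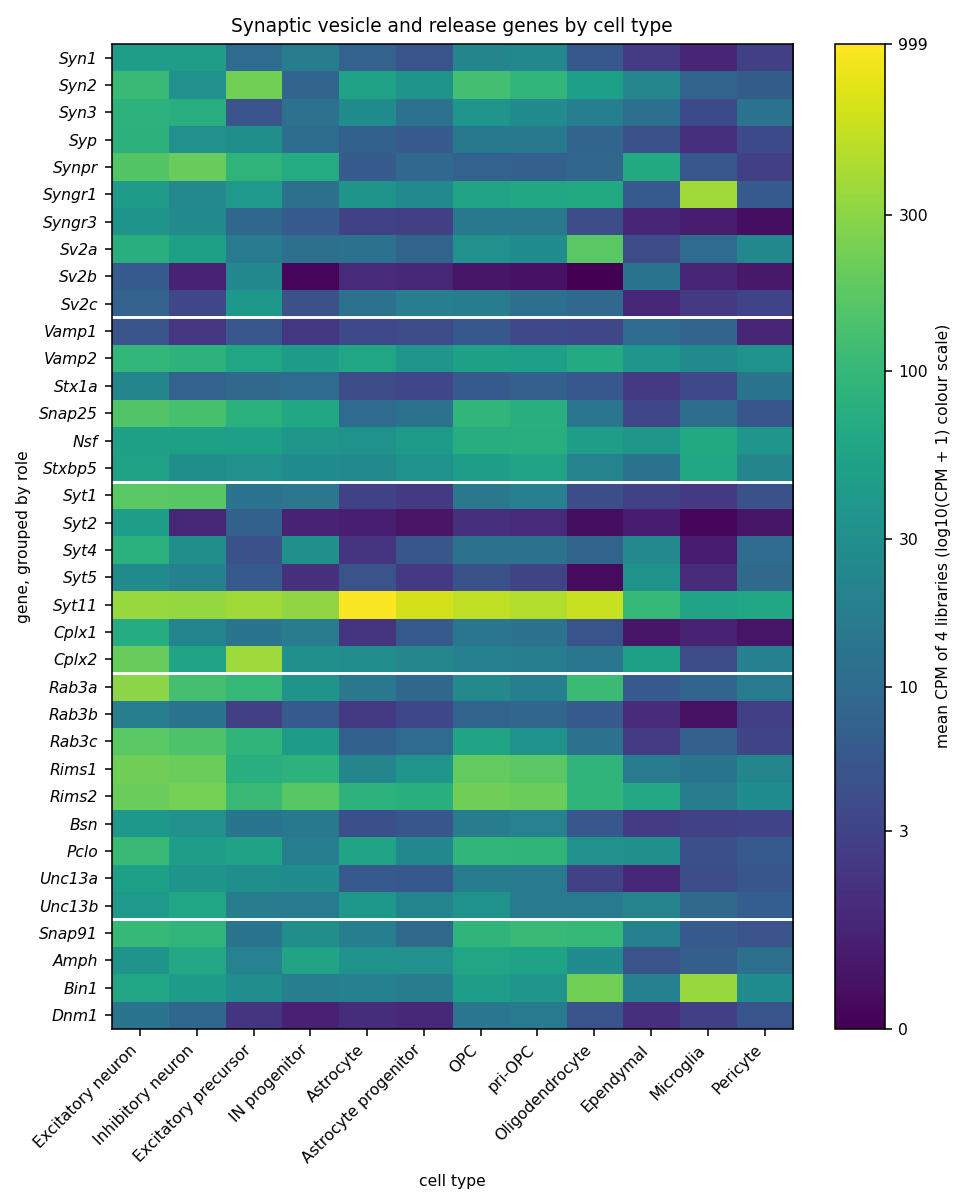
Mean level (CPM over 4 libraries, colour on a log10(CPM + 1) scale) of the 36 genes (rows, grouped by role with white lines between vesicle proteins, SNARE machinery, calcium sensors and complexins, Rab3 and active zone, and retrieval) in 12 cell types (columns). The brightest cell is Syt11 in astrocytes at a mean of 954 CPM, and Bin1 and Syngr1 stand out in microglia at 345 and 373 CPM.

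Excitatory and inhibitory neurons used much of the list at similar levels, but where they differed, excitatory neurons were mostly the higher class. The contrast is between whole classes, and 2384 of the 2955 inhibitory neurons lay in clusters with the neuroblast markers Sp8 or Prokr2. It was not counted for the 571 others, whose listed genes per cell, given further below, overlapped those of excitatory neurons. The 4 libraries of excitatory neurons all lay above the 4 of inhibitory neurons for 13 of the 36 genes, where 10.9% of the 11444 genes with at least 5 CPM did so, and for 0 genes did they all lie below, where 8.65% of genes did. The median log2 ratio was 0.46 over the listed genes and 0.01 over all genes. Cells were clustered without the listed genes, and the ratios are descriptions without a test, because the classes come from the same cells. Compared within each library, the count was 22 genes higher in 4 of 4 libraries (27.2% of all genes) and 2 lower (25.8%), the latter being Amph and Unc13b. With clusters made without a correction for the library 5 genes lay wholly above, but excitatory neurons then numbered only 8 cells in each replicate 2 library, under the minimum of 20 used here.

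Calcium sensors gave the widest contrast. Syt2, which with Syt1 is a fast calcium sensor, stood at 27.7, 65.0, 35.8 and 60.5 CPM in excitatory neurons and at 1.30, 1.25, 1.12 and 1.13 CPM in inhibitory neurons. Each excitatory library thus lay far above each inhibitory one, a 39.4-fold difference of the means (47.3 ± 18.3 against 1.20 ± 0.0894 CPM, SD, n = 4). This level lay in the 637 granule-like excitatory neurons, those with Prox1, at 47.6, 71.0, 43.5 and 66.0 CPM. The 288 others held Syt2 at 0.585, 0, 11.1 and 0 CPM, with only 12 cells in each replicate 2 library. Only in mutant replicate 1 did these others lie above inhibitory neurons. A UMI of Syt2 was found in 26.9% of 925 excitatory neurons, in 0.812% of 2955 inhibitory neurons and in 0.351% of 570 pericytes, a class that has no synapses, at median depths of 9326 to 10386, 5300 to 6703 and 9265 to 10188 UMIs per cell. With each cell thinned to 2000 UMIs the shares were 8.08%, 0.217% and 0.0763%. Syt1, in contrast, was at 326, 74.6, 237 and 49.2 CPM in excitatory and at 259, 106, 220 and 79.2 CPM in inhibitory neurons, so that the classes overlapped and the replicate number set the order. Syt4, a synaptotagmin that differs in a calcium-binding residue, was at 156, 40.2, 74.3 and 53.0 CPM against a range of 23.9 to 35.7 CPM. The class values did not overlap (2.72-fold), but most excitatory neurons were not the higher cells: the 637 granule-like ones, described further below, held Syt4 at 16.3, 1.04, 10.9 and 8.25 CPM, under inhibitory neurons, and the 288 others at 346, 470, 279 and 547 CPM. In each replicate 2 library the class value thus included only 12 cells of the subclass with high Syt4. Syt5 was at 24.1 to 34.4 CPM against 16.4 to 23.7 CPM, also without overlap of the whole classes. Inhibitory neurons without Sp8 and Prokr2, however, held Syt5 at 49.7, 48.6, 60.1 and 61.0 CPM, above every excitatory library. They also held Syt1 at 988, 344, 837 and 423 CPM, above the excitatory neurons of the same library in each. Syt11, the other member with the substitution of Syt4, was near level between the classes at means of 346 and 333 CPM.

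Complexins, which bind the assembled SNARE complex, were both higher in excitatory neurons. Cplx2 was at 108, 300, 131 and 270 CPM in excitatory and at 34.5, 81.2, 35.1 and 70.2 CPM in inhibitory neurons (3.66-fold). Cplx1 was at 44.3, 87.0, 54.3 and 101 CPM against 14.9, 32.5, 14.8 and 24.3 CPM (3.32-fold). Neither gene overlapped between the whole classes, and in both classes the replicate 2 libraries were the higher pair. Granule-like cells held Cplx1 at 57.1, 93.9, 66.7 and 105 CPM. Excitatory neurons without Prox1, with only 12 cells in each replicate 2 library, held it at 26.9, 11.5, 14.3 and 63.9 CPM and overlapped inhibitory neurons. Their Cplx2, at 79.0, 183, 90.8 and 155 CPM, lay above the inhibitory neurons of the same library in each. As a share of the UMIs of the pair, Cplx2 took 73.0 ± 3.16% (SD, n = 4) in excitatory and 71.5 ± 1.96% in inhibitory neurons, a gap smaller than the spread between libraries.

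Of the vesicle proteins, 4 separated the whole classes. Syp, which encodes synaptophysin, was at 58.2, 97.6, 58.8 and 122 CPM in excitatory and 28.0, 35.6, 26.1 and 36.8 CPM in inhibitory neurons (2.66-fold). Syn2, the gene of synapsin II, was at 116, 76.5, 149 and 88.5 CPM against 50.3, 24.4, 38.4 and 13.6 CPM (3.40-fold). Inhibitory neurons without Sp8 and Prokr2 held Syn2 at 157, 73.0, 143 and 36.6 CPM, and thus overlapped excitatory neurons. Their Syp, at 54.9, 91.2, 50.2 and 65.1 CPM, overlapped as well but lay below the excitatory neurons of the same library in each. Syngr1, a synaptogyrin, had means of 43.5 and 24.9 CPM, and Sv2b, 1 of 3 SV2 vesicle glycoproteins, means of 6.34 and 0.983 CPM. Sv2b was thus a low gene in both, with 65 UMIs in excitatory and 26 in inhibitory neurons. Syn1 was at 53.5, 46.9, 45.2 and 37.1 CPM against 56.7, 42.5, 51.8 and 31.7 CPM, and its means of 45.7 CPM were the same in both classes. Synpr, the gene of synaptoporin, a relative of synaptophysin, was at 158 ± 76.4 CPM in excitatory and at 202 ± 60.4 CPM in inhibitory neurons and was the higher in inhibitory neurons in 3 of 4 libraries. Syn1 and Syp lie on the X chromosome, as does Xist.

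Of the core SNARE genes, Snap25 and Vamp2 overlapped between the classes and Stx1a and Vamp1 did not. Snap25 was at 222, 79.4, 211 and 104 CPM in excitatory and 201, 72.5, 185 and 75.3 CPM in inhibitory neurons, and Vamp2, the main synaptobrevin of the forebrain, at 88.9, 94.7, 79.2 and 118 CPM against 59.3, 112, 57.1 and 113 CPM. Over all libraries the spread between replicates exceeded the gap between classes for both. Compared within each library, Snap25 was higher in excitatory neurons in 4 of 4 and Vamp2 in 3 of 4. Stx1a, a syntaxin of the plasma membrane, was at 31.4, 18.2, 20.4 and 20.4 CPM against 10.4, 3.75, 9.08 and 7.92 CPM (2.90-fold). Vamp1, the other synaptobrevin, was low at means of 5.02 and 1.99 CPM, again without overlap. Nsf, the ATPase that recycles SNARE proteins, had means of 51.3 and 49.2 CPM, and Stxbp5, the gene of tomosyn, which inhibits SNARE assembly, means of 52.3 and 30.5 CPM.

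At the active zone, Rab3a and Pclo separated the whole classes, and the other 7 genes of the group overlapped. Rab3a, a vesicle GTPase, was at 232, 330, 210 and 414 CPM in excitatory and at 102, 162, 97.1 and 156 CPM in inhibitory neurons (2.29-fold). Pclo, the gene of the scaffold piccolo, was at 134, 105, 107 and 67.3 CPM against 62.9, 46.2, 46.6 and 32.8 CPM (2.20-fold). In inhibitory neurons without Sp8 and Prokr2, Pclo was at 176, 57.8, 118 and 65.1 CPM. These values overlapped those of excitatory neurons, above them in the replicate 1 libraries and below them in those of replicate 2. Rab3a in the same cells, at 133, 255, 143 and 252 CPM, stayed below the excitatory neurons of the same library in each. Within the Munc13 pair the order turned: Unc13a was higher in excitatory neurons in 4 of 4 libraries (means of 48.3 and 34.7 CPM) and Unc13b lower in 4 of 4 (means of 39.6 and 59.2 CPM). Unc13a accordingly took 56.3 ± 7.01% of the UMIs of the pair in excitatory and 38.9 ± 7.34% in inhibitory neurons. Amph, a membrane-bending protein of vesicle retrieval, was also lower in excitatory neurons in each library, at 57.9, 15.3, 54.7 and 12.9 CPM against 106, 29.4, 94.1 and 28.3 CPM. Its relative Bin1 was higher in each library (means of 56.3 and 42.8 CPM).

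Excitatory neurons were next set against excitatory precursors, the Eomes-positive dividing cells from which they arise, in which dividing markers summed to 1920 to 3132 CPM against 39.1 to 101 CPM in the neurons. For 20 of the 36 genes the neurons lay wholly above (11.2% of 11631 genes) and for 2 genes wholly below (16.8%), with a median log2 ratio of 1.09 against -0.04 over all genes. Compared within each library, 28 genes were higher in 4 of 4 (26.5%) and 4 lower (32.2%). At a cluster resolution of 2 the first count was 13. Precursors then numbered 396, 128, 353 and 136 cells, against 167, 118, 152 and 121 in the main clustering. They included a cluster of 461 cells without raised dividing genes, 94.4% of them from replicate 1. Without a correction for the library the first count was 6, with only 8 neurons in each replicate 2 library and 217 to 389 precursors per library.

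Syt4, Syn3 and Syt1 had the largest ratios of this step. Syt1 was at 16.3, 6.01, 23.8 and 5.44 CPM in precursors, 13.3-fold under its mean in excitatory neurons. Syn3, the gene of synapsin III, was at 179, 19.1, 129 and 12.1 CPM in the neurons and at 1.21 to 8.46 CPM in precursors (17.3-fold). Its replicate 2 libraries lay well under the replicate 1 libraries in both classes. Syt4 averaged 80.8 CPM in neurons and 4.61 CPM in precursors (17.5-fold). The high level lay in the 288 neurons that were not granule-like, since the 637 granule-like ones, at the values above, were near the precursors with 10.0, 0.601, 5.38 and 2.42 CPM. Snap91, the gene of the clathrin adaptor AP180, averaged 101 CPM in neurons and 13.3 CPM in precursors (7.53-fold). Sv2a, the vesicle protein that binds levetiracetam, was at 58.4, 95.6, 60.7 and 92.3 CPM in neurons and 9.70, 25.8, 7.30 and 24.8 CPM in precursors, a 4.54-fold difference with no overlap.

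Another set of 4 genes ran the other way. Sv2c was at 60.6, 25.2, 46.1 and 21.2 CPM in excitatory precursors and at 15.6, 2.87, 10.6 and 2.27 CPM in excitatory neurons, 4.89-fold lower with no overlap, and Sv2b at 24.6, 19.2, 29.6 and 23.6 CPM against 8.91, 2.87, 6.03 and 7.56 CPM, 3.82-fold lower. Cplx2 reached 252, 448, 276 and 463 CPM in precursors, above the neurons of the same library in 4 of 4. Syn2 was likewise higher in the precursors of each library, at 310, 118, 331 and 159 CPM. The make-up of the families therefore differed between the stages. Sv2a took 22.9 ± 15.4% of SV2 UMIs in precursors and 83.4 ± 10.9% in neurons, Syn2 took 93.5 ± 1.12% of synapsin UMIs and then 49.3 ± 13.1%, and Cplx1 took 3.59 ± 0.785% of complexin UMIs and then 27.0 ± 3.16%. Shares within a family rest on UMIs and are not adjusted for transcript length.

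In the inhibitory lineage, no listed gene with at least 5 CPM was lower in neurons than in dividing progenitors in every library. Of 32 listed genes with at least 5 CPM in either class, 18 were wholly higher in inhibitory neurons (13.4% of 11243 genes) and 0 wholly lower (13.6%), and within libraries 28 were higher in 4 of 4 (34.7%) and 0 lower (26.3%). The median log2 ratio was 1.25, against 0.11 over all genes. Syt5 was 11.7-fold higher (16.4 to 23.7 against 1.20 to 2.44 CPM), Syt1 11.4-fold higher (166 against 14.6 CPM), and Dnm1, the neuronal dynamin that cuts vesicles from the membrane, 11.0-fold higher (9.46 against 0.862 CPM, the latter from 11 UMIs). These ratios of whole classes lay largely in the 571 inhibitory neurons without Sp8 and Prokr2. Pooled over libraries, these held Syt1 at 843 CPM and Dnm1 at 30.2 CPM. The 2384 others held 65.8 and 2.65 CPM, against 21.8 and 1.099 CPM in progenitors. Their Syt5, at 7.66 to 17.3 CPM per library, still lay above the progenitors. Sv2a was at 30.9, 71.2, 28.0 and 67.9 CPM in the neurons and 8.19, 16.8, 9.64 and 12.5 CPM in the progenitors. Syt4 overlapped between the stages at 29.7 ± 4.82 CPM in inhibitory neurons and 31.3 ± 5.72 CPM in their progenitors (SD, n = 4), while the class means differed 17.5-fold in the excitatory lineage. Syn2, highest in the precursors of the excitatory lineage, was at 8.42 CPM in inhibitory progenitors and 31.7 CPM in inhibitory neurons. Whether the lineages differ in these steps was not tested.

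**Figure D2:**
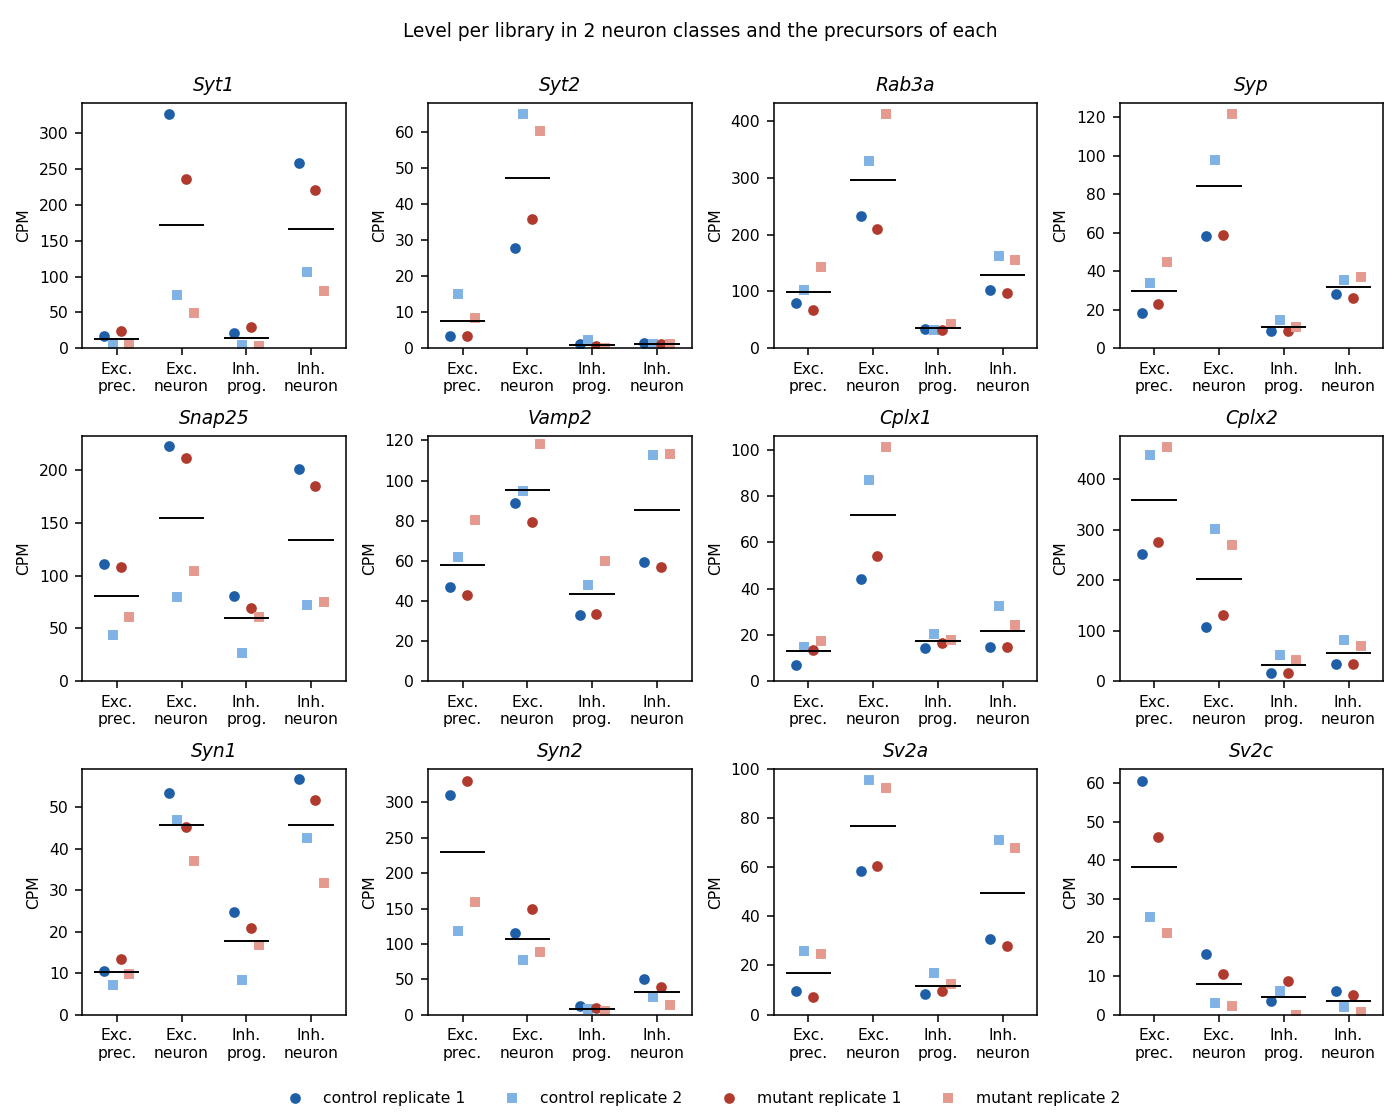
Level (CPM, linear axes from 0) of 12 of the genes in excitatory precursors, excitatory neurons, progenitors of inhibitory neurons and inhibitory neurons, with a point per library (circles for replicate 1, squares for replicate 2) and a bar at the mean of 4 libraries. Syt2 is highest in excitatory neurons (mean of 47.3 CPM, with 7.60 CPM in excitatory precursors), Syn2, Cplx2 and Sv2c have their highest means in excitatory precursors, and in the neurons the replicate 1 points of Syt1, Rab3a, Syp, Snap25, Cplx2 and Sv2a lie apart from those of replicate 2.

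Against glia, taken as astrocytes and OPCs together, neurons of both kinds together were wholly higher for 19 of 34 genes (20.7% of 12167 genes) and wholly lower for 3 (26.2%), with a median log2 ratio of 1.57 against 0.01. Within libraries 26 were higher in 4 of 4 (38.9%) and 3 lower (40.3%). Synpr was 26.8-fold higher (186 against 6.92 CPM), Syt1 24.4-fold (166 against 6.80 CPM) and Rab3a 10.7-fold (190 against 17.8 CPM). Syn1 was 3.72-fold higher (46.0 against 12.4 CPM) and Unc13a 4.15-fold higher (39.3 against 9.48 CPM). Rest, the repressor that reads RE1, was 6.91-fold lower in neurons (6.83 against 47.2 CPM), and Rcor2, the gene of a cofactor, 5.70-fold higher (62.2 against 10.9 CPM), both without overlap. The genes that were lower in neurons were Syt11, Sv2c and Syngr1. Syt11 was at 724, 1108, 793 and 1188 CPM in astrocytes, above every neuronal library.

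For several genes OPCs reached the levels of neurons. Rims1, the gene of an active-zone scaffold that binds Rab3, was at 315, 38.5, 380 and 25.3 CPM in OPCs and at 427, 58.3, 376 and 40.8 CPM in excitatory neurons. Snap91 was at 128, 44.8, 137 and 50.5 CPM in OPCs against 153, 53.6, 135 and 60.5 CPM in excitatory neurons, and Pclo at means of 93.4 and 104 CPM. Values of the classes overlapped for these 3 genes. Syt1 and Rab3a did not overlap: Syt1 was at 21.2, 5.54, 27.1 and 5.36 CPM in OPCs and Rab3a at 23.1, 23.0, 23.9 and 29.4 CPM. Astrocytes held 2.88 CPM of Syt1, 14.7 CPM of Rab3a and 22.2 CPM of Rims1. Snap25 was at 94.4 CPM in OPCs and 10.2 CPM in astrocytes.

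Among the other types, single genes stood high. Bin1, which also has forms outside neurons, was at 331, 317, 309 and 422 CPM in microglia and at 234, 229, 200 and 253 CPM in oligodendrocytes, against 56.3 CPM in excitatory neurons. Syngr1 was at 474, 190, 545 and 282 CPM in microglia, a cluster with Pf4, a border macrophage marker, among its leading genes. Sv2a was at 120, 202, 134 and 224 CPM in oligodendrocytes, above the neurons of the same library in 4 of 4. Ependymal cells held Syt5 at 36.9, 31.4, 31.7 and 35.2 CPM, overlapping the range of excitatory neurons.

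Per cell, the list was counted as the number of the 36 genes with at least 1 UMI after each cell had been thinned to 2000 UMIs. Excitatory neurons held 6.11, 4.41, 5.73 and 4.57 genes and inhibitory neurons 4.72, 3.24, 4.42 and 3.23 genes, so that excitatory neurons were higher in each library. The 571 inhibitory neurons without Sp8 and Prokr2 held 6.49, 4.06, 5.80 and 4.24 genes. They lay above excitatory neurons in the replicate 1 libraries and below them in those of replicate 2. Excitatory precursors held 3.54, 3.05, 3.51 and 3.16 genes and progenitors of inhibitory neurons 2.54, 1.57, 2.49 and 1.93 genes. OPCs held 3.91, 2.70, 4.21 and 2.79 genes, more than astrocytes with 2.15, 1.79, 2.21 and 1.80 genes. Pericytes, which should lack release machinery, held 0.932, 0.596, 0.716 and 0.649 genes. Without thinning, excitatory neurons held 13.1 to 14.4 genes and inhibitory neurons 7.02 to 9.82.

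**Figure D3:**
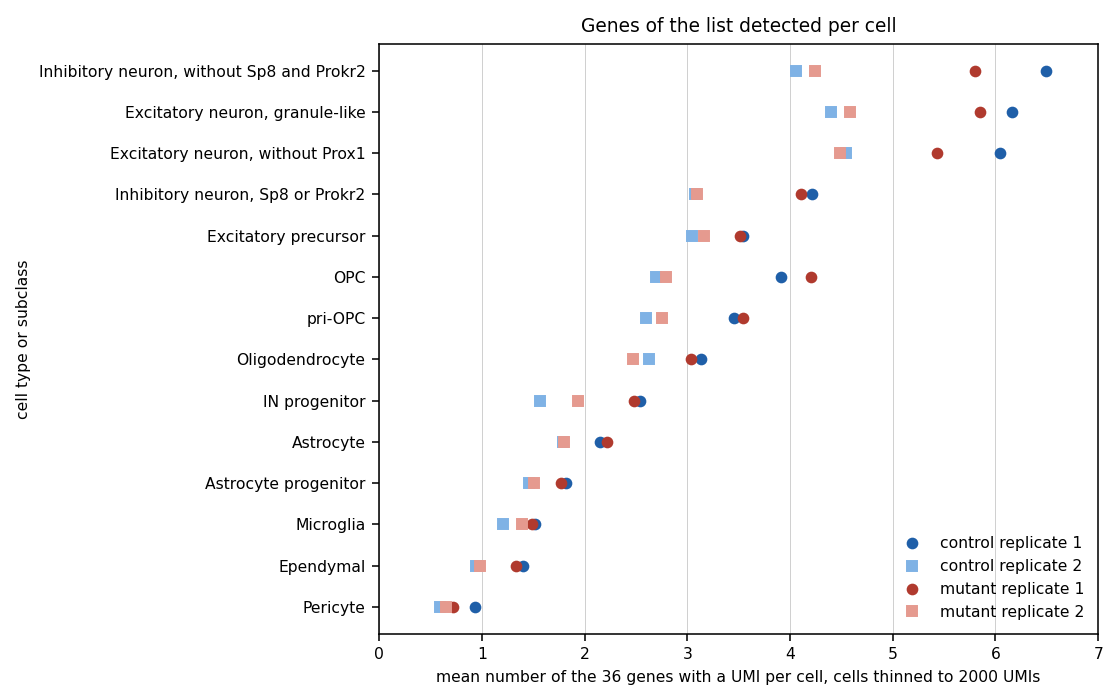
Mean number of the 36 genes with a UMI per cell, after thinning to 2000 UMIs (x axis), in each cell type or neuron subclass (y axis), with a point per library. Excitatory neurons and inhibitory neurons without Sp8 and Prokr2 lie furthest right, OPCs overlap inhibitory neurons with Sp8 or Prokr2, pericytes lie under 1 gene per cell, and replicate 2 libraries (squares) lie left of replicate 1 libraries (circles) in each neuron subclass.

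Neurons of each kind fell into subclasses that differed widely in the list, described here as pooled CPM. Granule-like excitatory neurons, the clusters with Prox1, held 53.2 CPM of Syt2 against 3.16 CPM in those without Prox1, 253 against 18.9 CPM of Synpr, and 10.9 against 342 CPM of Syt4, and each of these differences had the same direction in 4 of 4 libraries. Over the list, 6 of 36 genes were higher in granule-like cells in 4 of 4 libraries (14.4% of 11683 genes) and 11 were lower (11.9%). Excitatory neurons without Prox1 numbered only 12 cells in each replicate 2 library. Among inhibitory neurons, clusters without Sp8 and Prokr2, which mark neuroblasts bound for the olfactory bulb, held 843 CPM of Syt1 against 65.8 CPM in clusters with either, 137 against 17.2 CPM of Syn2 and 30.2 against 2.65 CPM of Dnm1. Of 33 listed genes with at least 5 CPM in either subclass, 21 were higher in 4 of 4 libraries (21.9% of 11520 genes) and 4 lower (18.8%), the latter being Syn1, Synpr, Syt11 and Unc13b. Different clusters held most of the Sp8 or Prokr2 cells of the replicate numbers: cluster 30 had 173 and 201 cells in the replicate 2 libraries and 0 and 1 in replicate 1, and clusters 1 and 5 were mostly of replicate 1. The contribution of subclasses to the contrast between excitatory and inhibitory neurons was not tested.

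The same cells were used to ask whether Chd8+/F changed the list. By edgeR's quasi-likelihood test on summed counts with Benjamini-Hochberg adjustment over all genes, 0 of 35 tested genes in excitatory neurons and 0 of 34 in inhibitory neurons passed an adjusted p of 0.05 (0% of all genes in either). At an unadjusted p under 0.05 there were 0 listed genes, against 0.0268% of all genes higher and 0.0178% lower in excitatory neurons and 0.00772% and 0.0309% in inhibitory neurons, and DESeq2 called 0 genes of any kind in both. Nor did any of 31 genes in progenitors of inhibitory neurons, 36 in astrocytes or 35 in OPCs (0% of all genes in each). With the replicate number as a block, edgeR called 20 genes in excitatory neurons and 0 in inhibitory neurons, 0 of them listed (0.0178% of all genes higher and 0.161% lower in excitatory neurons, 0% in inhibitory neurons). The smallest adjusted p of a listed gene in either neuron class was then 0.595 by edgeR, for Syt1 in excitatory neurons (log2 change of -0.52, standard error 0.19), and in granule-like cells alone it was 0.349, for Syn3 (-0.72, standard error 0.22). In simulated data with 200 genes changed 2-fold, edgeR without the block recovered 0% of them in either class, and with the block 43% in excitatory and 54.5% in inhibitory neurons, so that 0 calls without the block say little about changes of that size.

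Direction by genotype differed little from background in excitatory neurons. Mutant values were higher for 14 and lower for 21 of 35 genes, with a median log2 change of -0.034 against -0.0049 over all genes. In both replicate numbers, 7 were higher (24% of all genes) and 10 lower (24.2%). Pclo, Syt1 and Syn3 had an unadjusted p under 0.05 with the block and were lower in both, and Syt4, at the same level of p, was lower by 1.05 in replicate 1 and higher by 0.35 in replicate 2. These 4 genes stood against 2.91% of all genes that were lower at that level, and 0 listed genes were higher, against 1.65%. Granule-like cells, in which Syt4 was low, made up 55.1, 89.1, 71.7 and 90.4% of excitatory neurons. In granule-like cells alone the median was 0.032, with 19 genes higher and 15 lower and 10 of 34 lower in both replicates (24.5% of all genes). Pclo and Syt1 were lower in mutants in both excitatory subclasses of both replicate numbers. Syn3 was not, since cells without Prox1 held it at 271 CPM in mutant against 223 CPM in control replicate 1. The part of cell make-up in these values was not tested.

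In inhibitory neurons the changes leaned to lower values without any gene passing the test. Mutant values were lower for 30 of 34 genes, the median log2 change was -0.15 against -0.018 over all genes, and 22 genes were lower in both replicate numbers (30% of all genes) and 3 higher in both (21.4%). Pclo was at 62.9 and 46.2 CPM in controls and 46.6 and 32.8 CPM in mutants, lower by 0.46 and 0.51 on the log2 scale within replicates 1 and 2 (unadjusted p = 0.0187 with the block, adjusted p = 0.999 by edgeR). Syn2 was at 50.3 and 24.4 against 38.4 and 13.6 CPM, Syt1 at 259 and 106 against 220 and 79.2 CPM, and Rims2 at 71.3 to 351 CPM in mutants against 94.99 to 411 CPM in controls, with unadjusted p under 0.05 in the blocked fit and not without it. These 4 lower genes stood against 1.95% of all genes, and 0 listed genes were higher, against 0.772%. Cells without Sp8 and Prokr2, in which 21 of 33 listed genes were higher as given above, made up 22.2, 17.1, 18.4 and 11.7% of inhibitory neurons, a lower share in the mutant of both replicate numbers. Within the clusters with Sp8 or Prokr2 the median was -0.064, and 14 of 33 genes were lower in both replicates (27.3% of all genes). Within those without them it was -0.20, with 16 of 33 genes (25.8%). Of the 4 genes named, Syn2 and Rims2 were lower in mutants in both subclasses of both replicate numbers, but Syt1 and Pclo were not. In clusters with Sp8 or Prokr2, Syt1 was at 77.0 CPM in mutant against 68.3 CPM in control replicate 1. In those without them, mutant replicate 2 held Syt1 at 423 against 344 CPM and Pclo at 65.1 against 57.8 CPM in control replicate 2. A smaller share of a subclass and less RNA of a gene per cell cannot be told apart in the summed counts, and the part of the share was not tested. Without control replicate 1 the median of all inhibitory neurons was 0.18, and without mutant replicate 2 it was 0.05, comparisons in which the genotypes are no longer balanced for the replicate number.

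**Figure D4:**
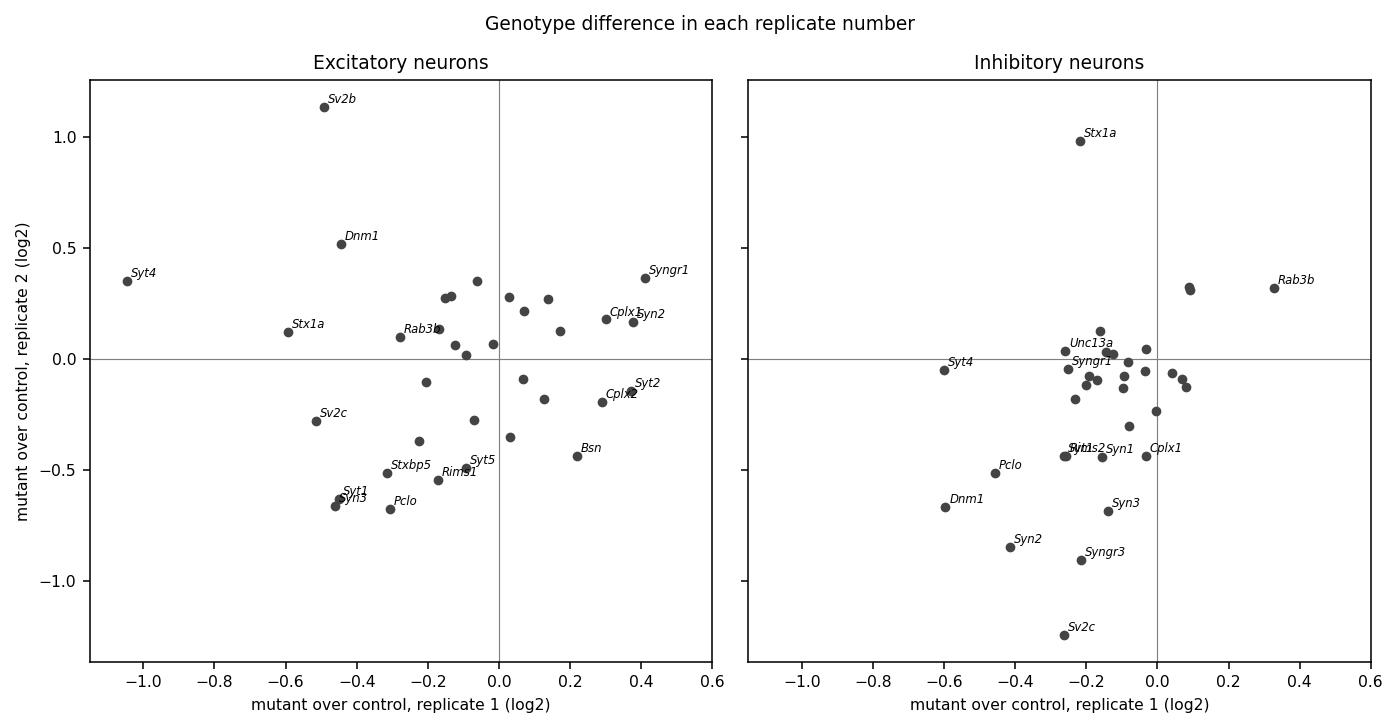
Mutant over control difference (log2) of each listed gene within replicate 1 (x axis) and within replicate 2 (y axis) in excitatory neurons (left, 35 genes) and inhibitory neurons (right, 34 genes), with a point per gene. In inhibitory neurons 22 of 34 points lie in the lower left quadrant, and in excitatory neurons 10 of 35.

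Numbers of listed genes per thinned cell did not separate the genotypes. The mutant mean was lower by 0.108 genes in excitatory neurons (5.15 against 5.26; exact two-sided permutation p = 1, n = 2 libraries per genotype) and lower by 0.152 in inhibitory neurons (3.83 against 3.98; exact permutation p = 0.667), where the smallest p that 2 against 2 libraries allow is 0.333. Within replicate 1 the difference was -0.379 in excitatory and -0.295 in inhibitory neurons, and within replicate 2 it was 0.162 and -0.00868.

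A wider difference lay between replicate numbers, and it went with intron length. Replicate 2 was lower than replicate 1 in both genotypes for 21 of 35 genes in excitatory neurons (39.7% of all genes) and higher in both for 11 (38.3%), with medians of -0.54 in controls and -0.32 in mutants. The listed genes are long: with all genes tested divided into 4 equal groups by intron sequence, 18 of the 35 were in the longest group (median of 125185 intron bases), in which the median difference was -1.03 over all genes and -1.42 over the listed ones in controls. In the shortest group it was 0.34 over all genes. Syn3 (431490 intron bases) was lower by 3.16 in replicate 2 controls, Rims1 (512382) by 2.84 and Syt1 (504995) by 2.11, while Rab3a (1773) was higher by 0.51 and Cplx2 (7641) by 1.48. Across the 35 genes, which share libraries and are not independent replicates, the difference went with log10 intron length at a Pearson r of -0.59 in controls and -0.68 in mutants (Spearman's rho of -0.67 and -0.78). Syt2, with 108279 intron bases, went against this and was higher by 1.21 in replicate 2 controls and by 0.70 in mutants. The share of granule-like cells, in which Syt2 was high, was higher there too. Within granule-like cells alone, Syt2 was also higher in replicate 2, at 71.0 against 47.6 CPM in controls and 66.0 against 43.5 CPM in mutants. Syt4, with only 5707 intron bases, departed the other way and was lower by 1.92 in replicate 2 controls and by 0.52 in mutants, and granule-like cells held it at a low level. Version, sex, cell state and make-up all changed with the replicate number and cannot be told apart.

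**Figure D5:**
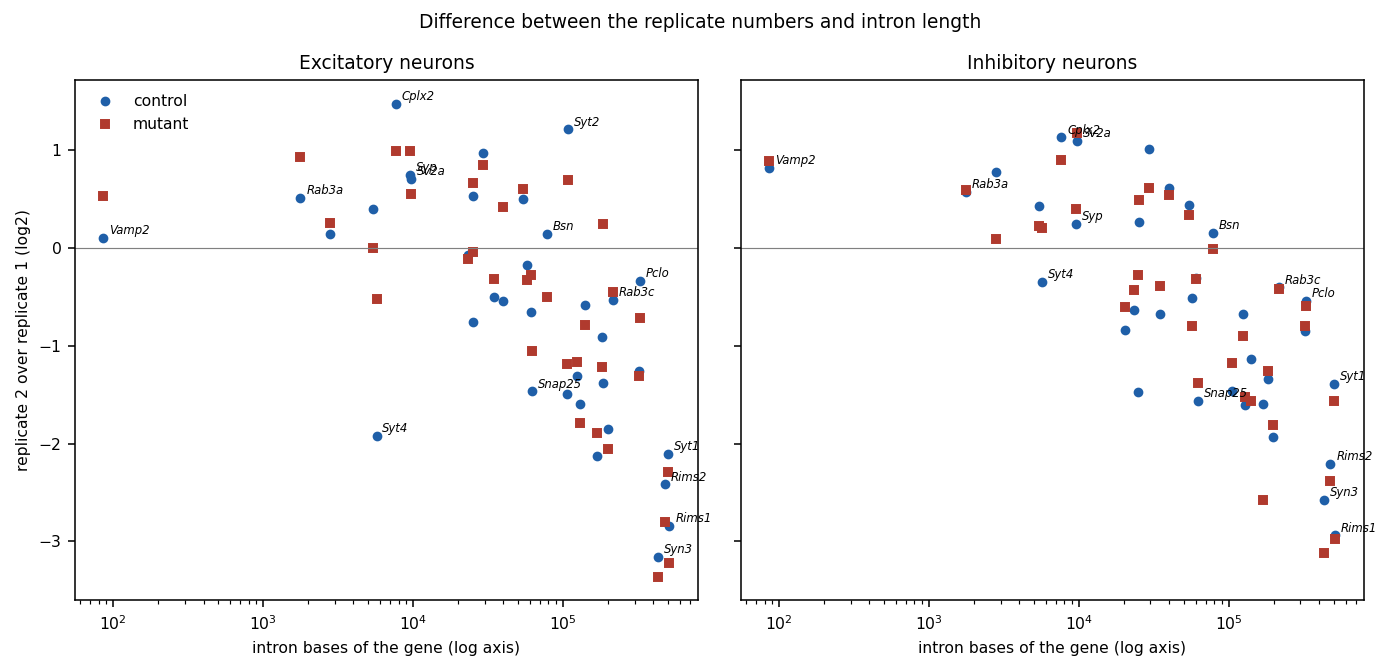
Replicate 2 over replicate 1 (log2) of each listed gene against the intron bases of the gene (log axis), in excitatory (left) and inhibitory neurons (right), for controls (circles) and mutants (squares). In control excitatory neurons Rab3a, a gene with short introns, is at 0.51 and Syn3, with long ones, at -3.16. Syt2 (1.21) and Pclo (-0.34) lie above other genes of like intron length and Syt4 (-1.92) lies far below them.

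A list of 57 other presynaptic genes was read for comparison. Excitatory neurons were wholly higher than inhibitory neurons for 14 of the 44 that reached 5 CPM (10.9% of all genes) and wholly lower for 3 (8.65%). Against excitatory precursors they were wholly higher for 15 of 42 (11.2%) and lower for 1 (16.8%). Inhibitory neurons were wholly higher than their progenitors for 13 of 39 (13.4%) and lower for 0 (13.6%), and neurons than glia for 13 of 46 (20.7%), with 4 lower (26.2%). The vesicular glutamate transporter genes Slc17a6 (71.8 against 2.89 CPM) and Slc17a7 (6.39 against 0.273 CPM), and Syt9, another fast sensor (32.5 against 2.85 CPM), had the largest ratios of excitatory over inhibitory neurons. The vesicular GABA transporter gene Slc32a1 (1.06 against 82.7 CPM), Syt6 (5.47 against 103 CPM) and Rph3a, the gene of a Rab3 effector (3.04 against 10.7 CPM), had the smallest. Slc17a6, Slc17a7 and Slc32a1 were also among the markers that named the classes. By genotype, edgeR called 0 of 45 of these genes in excitatory and 0 of 49 in inhibitory neurons (0% of all genes in either), with or without the block.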

How the data were processed

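The authors had sorted tdTomato-positive cells from the P5 telencephalon without olfactory bulb and thalamus, prepared 10x 3′ v3.1 libraries of 5000 input cells, mapped reads to mm10 and deposited raw UMI counts per gene and barcode. File headers name Cell Ranger 7.0.0 (replicate 1) and 5.0.1 (replicate 2), the submitters' processing notes name 3.0 and the study's methods 7.0.0. Groups and replicate numbers came from the labels.

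Barcodes were dropped below 2000 or above 40000 UMIs, below 1000 genes, or above 10% mitochondrial reads, and the rest were clustered with scanpy 1.11.5 (Python 3.11.15) on 2000 variable genes without the listed ones, centred and scaled within each library, with 30 components, 15 neighbours and resolution 1. Clusters were named from markers, and those with dividing genes at least 2 log2 units above the median as progenitors. This rule was set after the cells had been seen. Scrublet marked 2.50 and 2.60% of replicate 1 cells but 0.471 and 0.0914% of replicate 2 cells, where it has not worked, and doublets were removed in an alternative only.

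Counts were summed per class and library. Classes were compared by CPM without a test among genes with a mean of at least 5 CPM in either. Genotypes were tested with edgeR 4.0.16 in R 4.3.3 (filterByExpr, TMM, quasi-likelihood, prior count 2, Benjamini-Hochberg over all genes), which was tested on simulated data. Alternatives were DESeq2 1.42.0, other scalings and filters, a replicate block, a mitochondrial limit of 5%, resolution 2 and each library left out. Libraries of the same number share a software version, and their deviations from genotype means correlated at 0.609 to 0.898 in the 12 types and 3 of their subclasses. The members and lists were chosen with earlier results of these data known. Any listed gene may be named, along with the other presynaptic genes with the 3 largest and 3 smallest ratios of excitatory over inhibitory neurons, Rest, Rcor2 and Chd8. Gene positions and introns came from an annotation of GRCm38 that held 99.8% of the gene rows. Syn2, Syt1 and Sv2c overlap another gene on the same strand, so that their counts are less certain.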

Additional observations from a re-analysis of the deposited data

Results flagged for a closer look

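Of 33 listed genes with a value in both neuron classes, 5 had mutant over control changes of opposite sign in excitatory and inhibitory neurons, with both replicate numbers higher in the former and both lower in the latter, where 4.55% of the 10981 genes with a value in both did so. The reverse held for 0 listed genes and 3.29% of all genes. Syn2 differed most, with changes of 0.38 and 0.17 (log2, replicates 1 and 2) in excitatory neurons and -0.41 and -0.85 in inhibitory neurons, a mean difference of 0.90. Syngr1 had 0.41 and 0.37 against -0.25 and -0.04 (difference 0.54), and Cplx1 0.30 and 0.18 against -0.03 and -0.43 (difference 0.47). Synpr had 0.17 and 0.12 against -0.23 and -0.18 (difference 0.35), and Nsf 0.07 and 0.22 against -0.08 and -0.30 (difference 0.33). Within excitatory subclasses of replicate 1, however, Synpr was lower in the mutant. It was at 304 against 349 CPM in granule-like cells and at 15.9 against 22.2 CPM in those without Prox1. Granule-like cells made up 71.7% of excitatory neurons in mutant and 55.1% in control replicate 1. The part of cell make-up in these differences was not tested. The differences were not tested, and no gene of these passed an adjusted p of 0.05 by edgeR in either class.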

How the results depend on the processing

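Over 20 results and 242 alternatives, 202 values stayed within the spread between replicates, within 1.5 times the reported count or, for genes per cell, on the same side of 0. The values that stayed include the counts of listed genes called by genotype, which were 0 under every alternative. In both neuron classes the fit without the block recovered 0% of simulated 2-fold changes, so that these counts say little about stability there. Another 34 values moved and 6, all of them genes per cell, turned. Counted over all 242 alternatives, the sign changed in 19, 13 of them medians by genotype and 6 of them genes per cell, and the cause was not tested unless stated. Of the 13 medians, 9 changed sign when a library was left out. The other 4 were near 0: the excitatory median went from -0.034 to 0.032 in granule-like clusters alone (chosen after seeing the data), and that in progenitors of inhibitory neurons from -0.0086 to 0.035 with library totals, 0.13 with at least 10 counts in every library and 0.01 with the listed genes kept for clustering. No listed gene was called by genotype under any alternative, the replicate block included, which moved the median over the listed genes in astrocytes from 0.049 to 0.034, moved the other medians by less than the spread between replicates and changed no call of a listed gene. The astrocyte median was 0.095 at a mitochondrial limit of 5%, 0.036 with the listed genes kept for clustering and 0.027 at resolution 2. In inhibitory neurons the median was -0.064 in clusters with Sp8 or Prokr2 alone (chosen after seeing the data). Comparison within each library (also chosen after seeing the data) counts genes whose ranges overlap between libraries and gave 22 genes higher and 2 lower in excitatory than inhibitory neurons, 4 lower than in excitatory precursors and 28 higher in inhibitory neurons than in their progenitors. At resolution 2, 1 gene was lower in excitatory than inhibitory neurons, and 13 were higher and 1 lower than in excitatory precursors. Without a correction for the library, 5 genes were higher and 1 lower in excitatory than inhibitory neurons, and 6 higher than in excitatory precursors, from only 8 excitatory neurons in each replicate 2 library. Listed genes per cell without thinning were 0.125 higher in mutant excitatory and 0.0982 higher in mutant inhibitory neurons. With thinning they were 0.609 lower in mutant excitatory neurons without a correction for the library and 0.227 lower at resolution 2, against 0.108 lower as reported.

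Leaving out 1 library, which unbalances the genotypes for the replicate number, gave medians by genotype from -0.30 to 0.29 in excitatory neurons, -0.42 to 0.18 in inhibitory neurons, -0.19 to 0.46 in progenitors of inhibitory neurons, -0.34 to 0.19 in astrocytes and -0.31 to 0.42 in OPCs. The medians of neurons and progenitors turned positive without control replicate 1 (0.29, 0.18 and 0.46) and, in inhibitory neurons and their progenitors, without mutant replicate 2 (0.05 and 0.15). Those of astrocytes and OPCs turned negative without control replicate 2 (-0.19 and -0.14) and without mutant replicate 1 (-0.34 and -0.31). Genes per cell then differed by -0.956 to 0.739 in excitatory and -0.890 to 0.586 in inhibitory neurons. They were higher in mutants without control replicate 1 (0.739 and 0.586) and without mutant replicate 2 (0.469 and 0.443). Counts of genes wholly higher ranged from 13 to 15, 20 to 21, 18 to 19 and 19 to 20 in the order of the 4 contrasts in the text. Pools of 3 mice in 2 libraries per genotype, and low counts of Sv2b, Vamp1 and Dnm1, limit the precision.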

Other observations

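Oligodendrocytes held some of the listed genes at levels near or above those of a neuron class. Rab3a was at 108, 104, 113 and 119 CPM in control replicates 1 and 2 and mutant replicates 1 and 2. These values were close to its mean of 129 CPM in inhibitory neurons but under its mean of 296 CPM in excitatory neurons. The SNARE gene Snap25 averaged 13.9 CPM in oligodendrocytes against 133 CPM in inhibitory neurons. Snap91 averaged 98.4 CPM in oligodendrocytes, and Syt11, at 562 CPM, lay above its means in both neuron classes. Ependymal cells held Synpr at 100, 20.8, 108 and 30.3 CPM and Cplx2 at 41.8, 62.5, 40.5 and 56.1 CPM, and their Syt4 averaged 24.7 CPM. Microglia held Stxbp5 at 75.0, 31.7, 86.3 and 56.4 CPM, the highest mean of the 12 types compared, among which neuron subclasses were not ranked.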
